A study of Mus musculus with 8 samples.

Results

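The core pluripotency factors described here are 9 mouse genes: Pou5f1, Sox2, Nanog, Sall4, Utf1, Dppa4, Dppa5a, Fgf4 and Tdgf1. They were chosen by name, as the non-control probes whose gene name on the array is one of these, and they account for 9 of 36163 gene names and 16 of 55681 probes. RNA was measured in E14Tg2A cells, a mouse ES cell line of strain 129/Ola, at 4 stages of neural differentiation on 8 Agilent 1-color arrays. ES cells at 0 days in vitro (DIV) grew on gelatin with serum and LIF. Epiblast-like aggregates (ELA) had floated for 2 days in minimal medium with N2 and B27. Neural progenitor cells (NPC, 6 DIV) had then spent 4 days attached to poly-ornithine and laminin, and neural precursors (NPC/Neu, 10 DIV) 4 further days without B27. At each stage 1 array received total RNA and 1 array received Ago–RNA, which is RNA precipitated from cytoplasmic extract with the anti-pan Ago antibody 2A8. RNA of 3 independent experiments was pooled before labeling according to the labels, so that no condition has a replicate, no test between stages is possible and all stages describe a single cell line. No array of a control immunoprecipitation was analysed here.

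Oct4 (the product of Pou5f1), Sox2 and Nanog are transcription factors that bind together at the enhancers of ES cells and activate each other's genes. Pluripotent cells pass from a naive state, with its own set of factors, to a primed state like that of the epiblast after implantation, and the core factors differ in how long they last through it. Argonaute (Ago) proteins carry miRNAs within the silencing complex RISC and hold mRNAs through short matches to the miRNA seed, so an mRNA that is more abundant in Ago–RNA than in total RNA is read as enriched on Ago.

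For several of these genes the array carries more than 1 probe, and the probes of Nanog and of Tdgf1 disagreed in a way that shapes every value for both genes. The stretches shown here are 30 bases of each probe, 5′ to 3′, with the 20 bases that recur most often in the mouse genome (mm9) in capitals. All 5 probes lie in the 3′ UTR of their gene.
Nanog probe A_55_P2007699: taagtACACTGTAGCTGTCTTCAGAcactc
Nanog probe A_55_P2007708: ttaaacAAAATAAAACACTAATTTTAcctt
Tdgf1 probe A_55_P1968028: CTACACAGAAACCCTGTCTCggggagaaaa
Tdgf1 probe A_55_P2058540: gcaacTGGAAGTAAATTCAGAGTAGctgaa
Tdgf1 probe A_55_P2183147: TGATGCTCACAGTGAATCCCtaatgttacc
The capitals of Nanog probe A_55_P2007699 occur at 27892 places in the genome, and 11797 places match at least 54 of the 60 bases of the probe. The capitals of Tdgf1 probe A_55_P1968028 occur at 198 places. Those of the other Nanog probe and of the remaining Tdgf1 probes occur at 2 or 3 places. Of the 11 probes of the other 7 genes, none held 20 bases that occur at more than 13 places.

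Signal was corrected for local background by the normexp method, quantile normalized over the 8 arrays and expressed as log2, and the values of a gene are means over its probes. The spread between spots was taken from 399 probes printed in 10 spots each. The resulting spot SD was 0.22 to 0.23 for differences between stages in total RNA (log2), and it covers noise within an array and not variation between cultures. It is the SD of single spots and was not adjusted for means over several probes, as for Nanog, Tdgf1, Sall4 and Dppa4. All 16 probes sat in 1 spot each and none was irregular or saturated. On all 8 arrays 14 of them were marked by the scanner software as well above background, a mark that 53.4% to 61.2% of all spots carried on an array. All arrays lay on the same slide, and Ago–RNA of ES was the brightest of them, with an upper quartile of spot signal of 3039 beside 1060 to 1774.

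**Figure D1:**
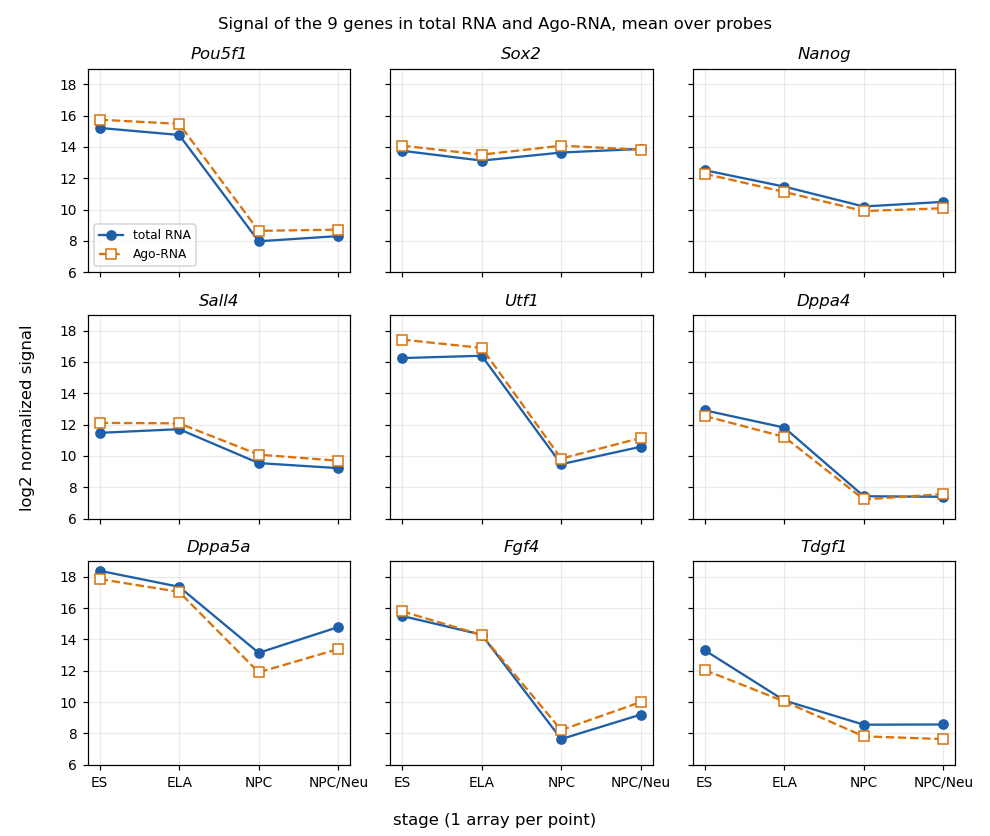
Log2 normalized signal (y axis) of the 9 genes at the 4 stages (x axis), with total RNA as filled circles and Ago–RNA as open squares, 1 array per point. Pou5f1, Utf1 and Fgf4 dropped between ELA and NPC, while Sox2 stayed between 13.13 and 13.87 in total RNA.

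Over the whole course 8 of the 9 genes fell more than 2-fold in total RNA from ES to NPC/Neu, and Sox2 was the exception. Of 25628 genes well above background at either stage, 16% fell by as much, and 16% rose as far, with none of the 9 among them. The median log2 change of the 9 genes was -4.74, which is the value of Tdgf1 as the mean of disagreeing probes, beside -0.05 over all genes. The limit of 2.5 on the log2 scale used in the study was passed by 6 of the 9, against 3.60% of all genes. Without the repeat-bearing probes of Nanog and Tdgf1, a choice made after seeing the data, the median was -5.52 and 7 of the 9 passed that limit. In Ago–RNA the same comparison gave 8 of 9 down more than 2-fold (16.7%), with 4 of 9 from ES to ELA (8.95%). The losses were spread unevenly over the 3 transitions. From ES to ELA 5 of the 9 fell more than 2-fold (4.58% of 24538 genes) and none rose (4.45%), with a median of -1.02. From ELA to NPC 8 of the 9 fell (9.61% of 24899 genes), 5 of them past the limit of 2.5 (1.92%), and the median was -4.21. From NPC to NPC/Neu none fell (3.96%) and 3 rose, namely Utf1, Fgf4 and Dppa5a (5.37%). These are bulk samples, so that fewer cells holding an mRNA and less of it per cell cannot be told apart.

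**Figure D2:**
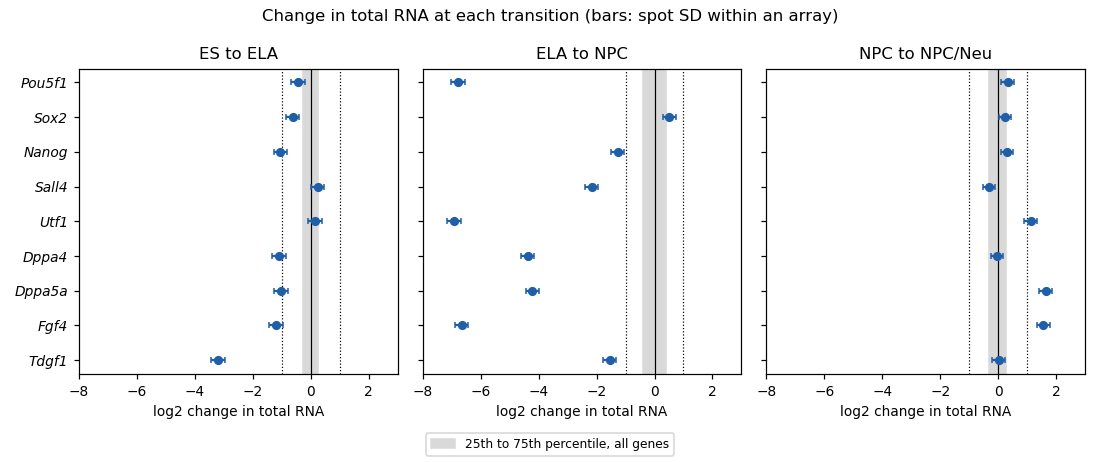
Log2 change in total RNA (x axis) of each gene (y axis) at the 3 transitions, with the spot SD as bars, the middle 50% of all genes in gray and dotted lines at 2-fold. From ES to ELA 5 points lie to the left of the lower 2-fold line. From ELA to NPC 8 points do, with only Sox2 to the right of it.

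Pou5f1 lies on chromosome 17 (35642982 to 35647721, plus strand, mm9) and encodes the POU domain factor Oct4, whose coding sequence the single probe targets. Its log2 total RNA signal was 15.21 in ES and 14.76 in ELA, then 7.98 in NPC and 8.31 in NPC/Neu. The mRNA was thus 0.45 lower in the aggregates than in ES, under 2-fold but past the spot SD of 0.23. Over the alternatives this change ran from -0.85 to -0.45. The mRNA then dropped by 6.78, or 110-fold, within the NPC step, and NPC/Neu lay 0.33 above NPC. Under the alternative normalizations the loss from ELA to NPC ranged from -7.39 to -6.52. Ago–RNA followed with 15.74, 15.47, 8.64 and 8.72.

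Sox2, an HMG box factor that partners Oct4 in ES cells and is also a factor of neural progenitors, lies on chromosome 3 (34548927 to 34551383, plus strand) and is read by 1 probe in the 3′ UTR. Its total RNA signal was 13.75 in ES and 13.13 in ELA, then 13.64 in NPC and 13.87 in NPC/Neu. ELA was the lowest stage, 0.63 below ES and 0.52 below NPC, both past the spot SD of 0.23 and neither past 2-fold. Over the alternatives the change from ES to ELA ran from -1.01 to -0.63, and the lower end passed 2-fold. The ES and NPC/Neu levels differed by 0.12, less than the spot SD of 0.22, and the sign of that difference changed with the scaling (-0.42 to 0.12). Sox2 was the only one of the 9 genes that did not lose more than 2-fold by NPC.

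Nanog, a homeobox factor of the naive state, lies on chromosome 6 (122657507 to 122664651, plus strand). By probe A_55_P2007708, whose capitals occur at few places and which ends 2 bases before the end of the transcript, total RNA was 15.30 in ES and 12.89 in ELA, then 9.73 in NPC and 9.95 in NPC/Neu. This probe fell by 2.40 from ES to ELA and fell by 3.16 from ELA to NPC. Over the whole course it fell by 5.35, or 40.7-fold. The repeat-bearing probe A_55_P2007699 gave 9.73, 10.04, 10.66 and 11.04, so it ended 1.31 above ES. Their mean, 12.51, 11.47, 10.20 and 10.50, fell by 2.02 and hides both courses. Probe A_55_P2007708 has near matches too, over 57 of its 60 bases on chromosome X (87127651 to 87127710) and over 54 on chromosome 5 (39594545 to 39594604). How much of the signal of either probe came from other places was not tested.

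Sall4, a zinc finger factor that binds beside Oct4 and Nanog, lies on chromosome 2 (168573832 to 168593443, minus strand) and has a pair of probes in the coding sequence and 1 in the 3′ UTR. Its mean total RNA signal was 11.47 in ES and 11.70 in ELA, then 9.54 in NPC and 9.22 in NPC/Neu. The rise from ES to ELA, 0.234, was just past the spot SD of 0.231, which is that of single spots and not of a mean over 3 probes. It ranged from -0.04 to 0.34 over the alternatives, being below 0 when medians were aligned. The loss from ELA to NPC was 2.16 (4.48-fold). All 3 probes fell at that step, with changes of -1.43 and -2.28 in the coding sequence and -2.78 in the 3′ UTR. Its whole loss (4.77-fold) was small beside that of Pou5f1 (120-fold).

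Utf1, a chromatin-associated cofactor of undifferentiated cells, lies on chromosome 7 (147129688 to 147131011, plus strand) with 1 probe at the end of the 3′ UTR. Total RNA was 16.24 in ES and 16.39 in ELA, then 9.47 in NPC and 10.58 in NPC/Neu. ES and ELA differed by 0.14, less than the spot SD. The fall of 6.92 from ELA to NPC (121-fold) was the largest of the 9 genes at any single transition, with changes of -6.78 for Pou5f1 and -6.66 for Fgf4 close to it. Over the alternatives Utf1 reached -7.47 and Fgf4 -7.68, so this order is not settled. For Utf1, NPC/Neu then lay 1.11 above NPC.

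Dppa4, a SAP domain protein bound to chromatin, lies on chromosome 16 (48283848 to 48294405, plus strand). Its coding probes read 14.03, 12.99, 7.72 and 7.71, and 14.37, 13.24, 7.73 and 7.73, from ES to NPC/Neu. Its 3′ UTR probe read 10.33 in ES and 9.19 in ELA and was not well above background later, which gives a total RNA level at least 11.4-fold lower in NPC and at least 11.6-fold lower in NPC/Neu than in ES. From ES to ELA the coding probes changed by -1.04 and -1.13, and from ELA to NPC by -5.27 and -5.50. The gene mean used in the counts, which fell by 1.10 and then fell by 4.38, includes the dim 3′ UTR probe. Both coding probes have near-identical places elsewhere in the genome, including 1 on chromosome 2 (122040586 to 122040645) identical to the probe A_55_P2065549, so signal of a copy cannot be set apart from that of Dppa4.

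Dppa5a, a KH domain protein that binds RNA, lies on chromosome 9 (78214859 to 78215984, minus strand). Its probe read 18.38 in ES and 17.36 in ELA, then 13.15 in NPC and 14.79 in NPC/Neu in total RNA. It fell by 1.02 and then fell by 4.21, and from NPC to NPC/Neu it rose by 1.64. That was the largest rise of the 9, beside 1.56 for Fgf4, which reached 2.37 over the alternatives. The Dppa5a probe is identical at 3 places of chromosome 9 and to the transcript of Dppa5b, so the value belongs to the group of copies rather than to Dppa5a alone.

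Fgf4, the autocrine ligand that drives ERK signaling in ES cells and a target of Oct4 and Sox2, lies on chromosome 7 (152047291 to 152051148, plus strand). Total RNA was 15.50 in ES and 14.30 in ELA, then 7.64 in NPC and 9.20 in NPC/Neu by a probe at the very end of the transcript. Fgf4 was 2.29-fold lower in ELA than in ES, fell by 6.66 (101-fold) in the next transition, and then rose by 1.56. The level in NPC/Neu remained 78.4-fold below ES.

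Tdgf1 (Cripto), the co-receptor through which Nodal reaches its activin receptors, lies on chromosome 9 (110842114 to 110848662, minus strand), and its largest fall came a transition earlier than in the other genes that fell. Probe A_55_P2183147 gave total RNA of 14.09 in ES and 9.86 in ELA, then 7.31 in NPC and 7.21 in NPC/Neu, a fall of 4.23 from ES to ELA. Probe A_55_P2058540 gave 12.60 and 8.01 and was not well above background afterwards, so that NPC lay at least 57.7-fold and NPC/Neu at least 54.4-fold below ES. Probe A_55_P1968028, with the stretch found at 198 places, gave 13.25, 12.45, 11.77 and 11.68 and fell by 0.80 from ES to ELA. The mean over the 3 probes fell by 3.20 in the first transition, and Tdgf1 was the only one of the 9 genes past the limit of 2.5 there (0.493% of all genes). The brightest probe alone gave -0.80 and the pair without it -4.41, so the size of the loss rests on the probe chosen. Chromosome 16 holds stretches close to a pair of these probes, identical over 60 bases at 3731075 to 3731134 for A_55_P2183147 and over 57 at 3732045 to 3732103 for A_55_P1968028. At Tdgf1 itself (110843099 to 110843158) A_55_P2183147 matches 59 of 60 bases, 1 fewer than at the chromosome 16 copy. The part of these copies in the signal was not tested.

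**Figure D3:**
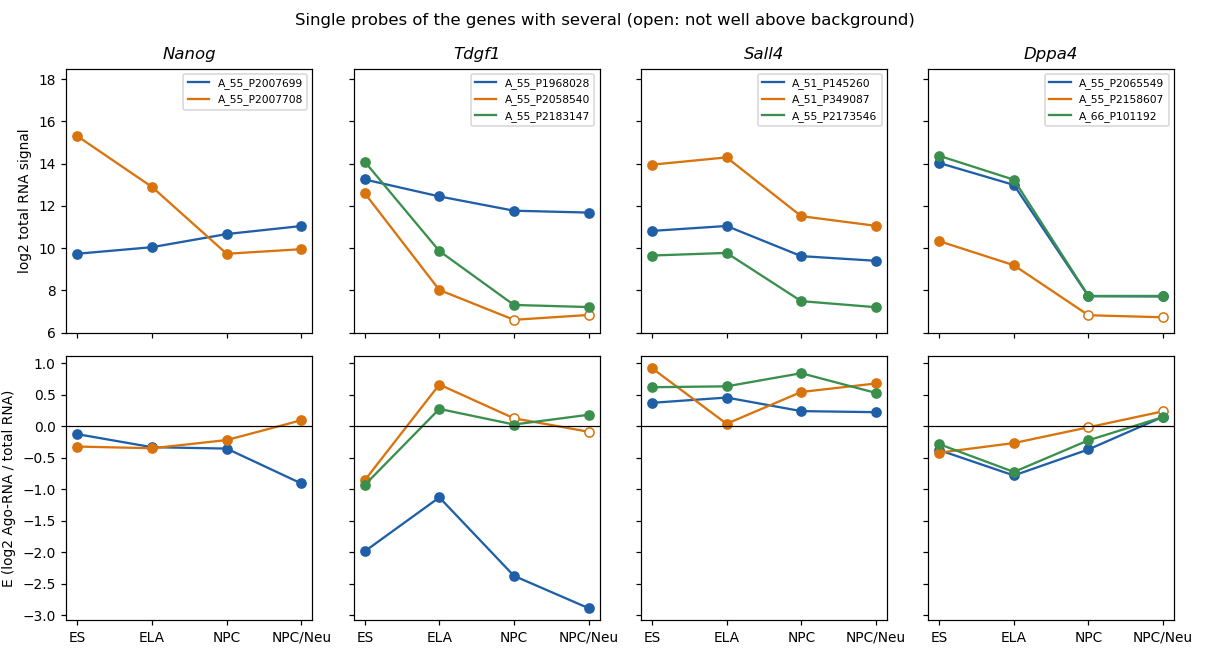
Log2 total RNA signal (top) and Ago enrichment E (bottom) of the single probes of Nanog, Tdgf1, Sall4 and Dppa4 at the 4 stages, 1 array per point for total RNA and a pair of arrays for E, with open symbols where an array was not well above background. The Nanog probes cross between ELA and NPC, and Tdgf1 probe A_55_P1968028 stays above 11 while the others fall below 8.

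Ago enrichment (E) is the log2 signal in Ago–RNA minus that in total RNA of the same stage. A gene was counted as bound where its Ago–RNA exceeded T1, a log2 signal of 7.82 fitted from the dim probes. All 9 genes were bound in ES and ELA. At both later stages 7 were bound, since Dppa4 (7.22 and 7.56) and Tdgf1 (7.82, at the limit, and 7.64) lay below it. In ES the median E of the 9 was 0.30, beside 0.09 over 17102 bound genes, and 5 of the 9 were above 0 (54.2% of all). The spot SD of E was 0.21 to 0.25. Utf1 was enriched more than 2-fold in ES (13.7%) and Tdgf1, as the mean of its probes, was depleted as far (12.0%). Of the Tdgf1 probes only the repeat-bearing A_55_P1968028 passed that limit, with -1.99 beside -0.86 and -0.93. Which genes pass these limits also depended on the scaling. Dppa5a reached -1.83 with processed signals scaled to their 75th percentile, and Sall4 (1.31) and Sox2 (1.05) passed 2-fold enrichment with medians aligned. None reached 2, the enrichment that the study asked for, at any stage (beside 1.07%, 0.513%, 0.567% and 1.67% of bound genes from ES to NPC/Neu). The level of E moved with the scaling of the arrays. The median in ES was -0.25 when processed signals were scaled to their 75th percentile and 0.61 when medians were aligned.

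**Figure D4:**
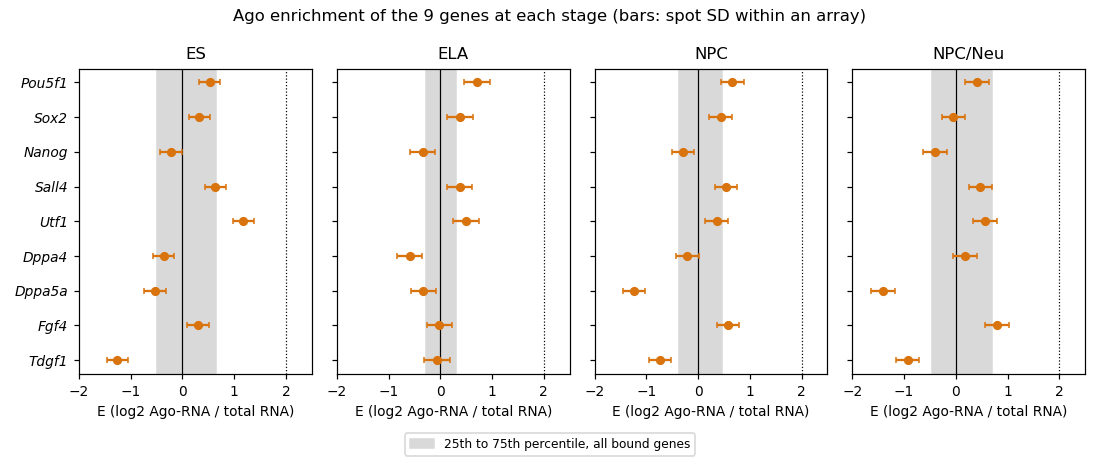
Ago enrichment E (x axis, log2 Ago–RNA over total RNA) of each gene (y axis) at the 4 stages, with the spot SD as bars, the middle 50% of all bound genes in gray and a dotted line at the limit of 2. Points to the right of the gray band in ES belong to Utf1, and those to its left to Dppa5a and Tdgf1.

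Pou5f1 had E of 0.53 in ES and 0.71 in ELA, then 0.67 in NPC and 0.41 in NPC/Neu, so that its ratio to total RNA changed by less than the spot SD of the difference (0.31 to 0.33) at each step while its total RNA fell 110-fold. Sox2 had 0.33, 0.38, 0.44 and -0.05, and its last step, -0.48, was larger than the spot SD and ranged from -0.49 to -0.08 over the alternatives. Nanog had -0.23, -0.34, -0.29 and -0.41 as the mean of its probes, and the sign of its value in ES changed with the scaling (-0.53 to 0.25). In NPC/Neu the Nanog probes disagreed, with -0.91 for the repeat-bearing A_55_P2007699 and 0.09 for A_55_P2007708. Sall4 had 0.63, 0.37, 0.54 and 0.47. Its 3′ UTR probe A_51_P349087 went from 0.92 in ES to 0.04 in ELA, whereas its coding probes moved by 0.08 and 0.01.

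Utf1 had E of 1.18 in ES and 0.50 in ELA, then 0.36 in NPC and 0.56 in NPC/Neu. The value in ES ranged from 0.05 to 1.18 over the alternatives, and the highest alternatives kept the quantile step. Dppa4 had -0.36, -0.59, -0.20 and 0.18, with a sign in ES that changed with the scaling (-0.50 to 0.30). Dppa5a was below 0 at every stage, with -0.53 and -0.33 in ES and ELA and -1.25 and -1.40 in NPC and NPC/Neu. It was the only one of the 9 depleted more than 2-fold at the last stages (5.68% of bound genes in NPC and 11.7% in NPC/Neu), although its E there was as near to 0 as -0.78 and -0.52 under other scalings. Fgf4 had 0.30, -0.02, 0.57 and 0.80, and its sign in ES also changed with the scaling (-0.25 to 0.61).

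Tdgf1 had E of -1.26 in ES and -0.07 in ELA, then -0.74 in NPC and -0.93 in NPC/Neu as the mean of its probes. The repeat-bearing probe A_55_P1968028 gave -2.37 in NPC and -2.89 in NPC/Neu, whereas A_55_P2183147 gave 0.03 and 0.18. A_55_P2058540 was not well above background at these later stages. All 3 probes moved upward from ES to ELA, A_55_P2058540 from -0.86 to 0.66, A_55_P2183147 from -0.93 to 0.27 and A_55_P1968028 from -1.99 to -1.13. The variation between consecutive stages (ΔE) was therefore 1.19, and no other of the 9 passed 1 in either direction from ES to ELA (9.31% of genes rose and 7.46% fell as far). It ranged from 0.61 to 1.36 over the alternatives, under which the ΔE of Dppa5a also reached 1.13. Total RNA of Tdgf1 fell by 3.20 in the same step and its Ago–RNA fell by 2.01. With the brightest probe alone Ago–RNA changed by 0.05.

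For the other genes ΔE from ES to ELA was 0.18 for Pou5f1, 0.05 for Sox2, -0.12 for Nanog, -0.26 for Sall4, -0.68 for Utf1, -0.23 for Dppa4, 0.20 for Dppa5a and -0.32 for Fgf4, beside a spot SD of 0.32. The median of the 9 was -0.12 and that of all genes -0.02. Only Utf1 and Tdgf1 moved by more than the spot SD, which was not adjusted for the probe means of Nanog, Sall4 and Dppa4. The value for Utf1 ranged from -0.68 to 0.28 over the alternatives. In the second transition the extremes were Dppa5a at -0.92 (-0.93 to -0.29 over the alternatives) and Fgf4 at 0.59 (0.12 to 1.10). In the third they were Sox2 at -0.48 and Dppa4 at 0.38, and Dppa4 was not counted as bound in NPC or NPC/Neu. The study called an mRNA released or loaded when E passed from at least 2 to at most 0.5, or the reverse, with a ΔE of at least 1.5. None of the 9 genes and none of the 16 probes reached an E of 2 at any stage. None could therefore meet these limits at any transition, whether with 0.5 or with 1.2 in its place. By the gene mean 76 genes of the array were released and 50 loaded from ES to ELA (0.420% and 0.276% of 18105), or 123 and 61 with the limit of 1.2 (0.679% and 0.337%).

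The length of a transcript went along with E over the whole array in ES. Median E of bound genes was -0.48 in the shortest of 4 equal length classes (102 to 1842 bases), 0.05 and 0.38 in the middle ones and 0.83 in the longest. Pou5f1, Utf1, Dppa4 and Dppa5a fell in the shortest class, Sox2, Nanog and Tdgf1 in the next, Fgf4 in the third and Sall4, with 5073 bases, in the longest. Against the middle 50% of their own class, Pou5f1 (1347 bases) and Utf1 (1224 bases) lay above its upper bound of -0.06. Dppa4 (1534 bases) and Dppa5a (619 bases) lay inside it, as did Sox2, Nanog, Fgf4 and Sall4. Tdgf1 lay below the lower bound of its class, -0.35. The position of a probe within the transcript differs among these genes, and its part in E was not tested.

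The miRNAs that load Ago in ES cells and neural cells are known by their seeds, and they are shown to place the 9 mRNAs beside them. Mature sequences are from RefSeq (GRCm38.p6), 5′ to 3′, with the seed, bases 2 to 8, in capitals.
mmu-miR-294-3p: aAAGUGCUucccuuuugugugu
mmu-miR-302b-3p: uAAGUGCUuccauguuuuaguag
mmu-let-7a-5p: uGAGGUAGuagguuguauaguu
The miRNAs miR-294-3p and miR-302b-3p, of the clusters expressed in pluripotent cells, share a seed whose match is AGCACTT, and that of let-7a-5p, which accumulates on differentiation, is CTACCTC. Both were searched on the transcript strand of the longest coding transcript. AGCACTT was present in 1 of the 9 3′ UTRs, that of Fgf4, and in none of the 9 coding sequences. Over the annotation it was present in 13.0% of 19815 3′ UTRs and 10.5% of 22594 coding sequences. CTACCTC occurred in the 3′ UTRs of Sall4 and Fgf4, with 1 match each (8.24% of all 3′ UTRs), and with 3 matches in the coding sequence of Sall4 (12.0% of all coding sequences). A match is a description of the letters and not a measured site.

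Genes of the network around the core factors were described in the same way. All 11 naive pluripotency genes fell more than 2-fold from ES to ELA (4.58% of all genes), with a median of -3.01. The smallest loss was -1.86 for Dppa3, and the largest was that of Prdm14, which was not well above background in ELA and thus lay at least 15.6-fold lower there. Among the core factors the change of Tdgf1 (-3.20), and that of the Nanog probe A_55_P2007708 (-2.40), were larger than that of Dppa3. The changes of the other core factors were smaller, and those of Pou5f1, Sox2, Sall4 and Utf1 lay between -0.63 and 0.23. Over the alternatives Pou5f1 reached -0.85 and Sox2 -1.01. Of 20 partners and targets of Oct4, Sox2 and Nanog, 9 fell more than 2-fold (4.58%) and 1 rose (4.45%) in that step. Changes ran from -3.73 for Lefty1, a Nodal antagonist, to 1.58 for the nuclear receptor Nr6a1. From ELA to NPC 11 of these 20 fell (9.61% of all genes). The lowest was the forkhead factor Foxd3, at least 57.3-fold lower since it was not well above background in NPC. From ES to NPC/Neu 16 of the 20 fell and none rose (16% of all genes in each direction).

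**Figure D5:**
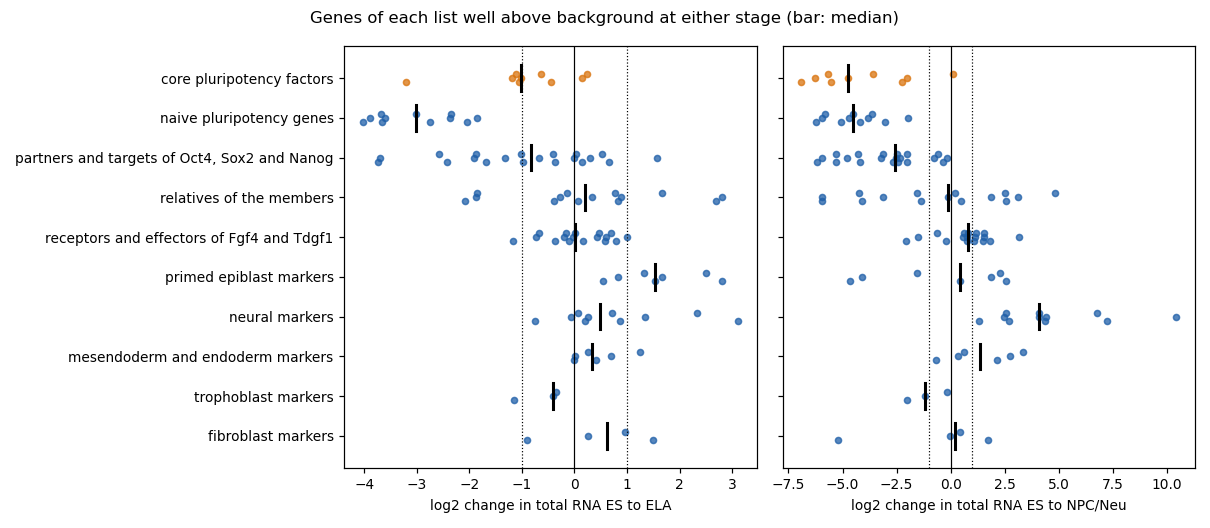
Log2 change in total RNA (x axis) from ES to ELA (left) and from ES to NPC/Neu (right) for genes of each list well above background at either stage, with the median as a bar and dotted lines at 2-fold. From ES to ELA the core factors have a median of -1.02 and the naive genes of -3.01, and both are below -4 by NPC/Neu.

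All 7 primed epiblast markers were well above background at each stage. From ES to ELA 5 of them rose more than 2-fold (4.45% of all genes), with a median of 1.53. The highest was Fgf5 with 2.81, a relative of Fgf4 that then fell by 7.30 from ELA to NPC. Of 15 relatives of the members 3 rose (4.45%) and 3 fell (4.58%) more than 2-fold from ES to ELA. Sox15 was the lowest at -2.09. From ES to NPC/Neu 5 of the 15 rose and 7 fell, beside 16% of all genes each way, the highest being Pou3f2, a neural POU factor, with 4.82. Of 17 receptors and effectors of Fgf4 and Tdgf1, 1 fell (4.58%) and none rose (4.45%) more than 2-fold from ES to ELA. Their median was 0.00, and the extremes were Acvr2b (1.00, under 2-fold) and Spry4 (-1.18). From ES to NPC/Neu 8 of the 17 rose and 2 fell, beside the same 16%, between Spry1 (3.18), a feedback inhibitor of FGF signaling, and Etv5 (-2.07), an ETS factor downstream of it.

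Neural markers rose over the course in which the core factors were lost. The summed linear total RNA signal of 11 neural markers was 41011 in ES and 48625 in ELA, then 209587 in NPC and 526363 in NPC/Neu, and all 11 rose more than 2-fold from ES to NPC/Neu (16% of all genes), from Stmn2 (1.30) to Fabp7 (10.43). The summed signal of the 9 core factors was 544304, 321730, 25475 and 48338, and most of the difference between the last stages was Dppa5a, whose probe also reads Dppa5b. Dppa5a alone gave 342221 in ES and 168244 in ELA. Without Dppa5a the sums were 202082 in ES and 153486 in ELA, then 16405 in NPC and 20030 in NPC/Neu. Naive genes summed to 189174 in ES, 4079 in NPC and 8913 in NPC/Neu, and 4 of the 11 rose more than 2-fold in the last step (5.37% of all genes), the highest being Esrrb with 1.96.

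Of 9 mesendoderm and endoderm markers 5 or 6 were well above background in total RNA at each stage. Their sum, which includes the markers at background, was 1342 in ES and 1808 in ELA, then 2991 in NPC and 5047 in NPC/Neu. From ES to NPC/Neu 3 of them rose more than 2-fold (16% of all genes), Foxa2 by 3.35, Eomes by 2.73 and T by 2.12. Mixl1, Gata6 and Afp were not well above background in total RNA at any stage. Of 4 trophoblast markers 1 to 3 were, with sums of 1093, 783, 1017 and 470 from ES to NPC/Neu that likewise include those at background. Of 5 fibroblast markers 4 or 5 were, with sums of 6652, 16936, 3487 and 2525. The high sum in ELA was mostly Thy1, at 13.92 on the log2 scale, which changed by -5.19 from ES to NPC/Neu, whereas the collagen gene Col1a2 rose by 1.70. The part of undifferentiated or other cells in the signals of Utf1, Fgf4 and Dppa5a at NPC/Neu was not tested.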

How the data were processed

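Each array held RNA of 1 condition. The authors deposited spot intensity as extracted by the scanner software (Feature Extraction 10.7.3.1 per the file headers, 9.1 per the labels), before any normalization between arrays. With limma 3.58.1 in R 4.3.3, local background was removed from mean intensity by normexp with an offset of 50, irregular spots left out, arrays quantile normalized together, and spots and then probes of a gene averaged on the log2 scale. T1 was set 3 SD above the mean of the dim component when Ago–RNA signals were fitted with 2 Gaussians (mclust 6.1.1). Further steps used Python 3.11.15, numpy 2.4.6 and pandas 2.3.3. Genes were counted over those well above background on an array compared (E and ΔE, over bound genes). A floor for dim probes was the lowest signal well above background on the array, or the probe's own where higher. Quantile normalization removes overall differences in RNA recovery. The number of arrays limits the precision. Differences are described beside the spot SD, with no test. Probes were matched to the genome and to GENCODE transcripts (mm9), the annotation build of the array. The procedure was tested on simulated data. Alternatives were other offsets, processed signals, other scalings, filters and probe choices.

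The members and gene lists were chosen with earlier results of these data known. Named are the 9 genes with all probes, the highest and lowest gene of each list for a change described (1 is not reported here), the gene nearest in pattern to each member, and genes that a member's probe matches. Nanog probes, Sall4 regions and any gene outside that rule were picked after their values were seen.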

Additional observations from a re-analysis of the deposited data

How the results depend on the processing

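Of the summary values, the number of genes down more than 2-fold from ES to NPC/Neu was 8 under all 10 alternatives. The median ΔE from ES to ELA ran from -0.38 with medians aligned to 0.15 with processed signals scaled to the 75th percentile, so its sign changed. These moves were smaller than the spot SD of ΔE, which is that of single spots and not of a median over genes. The count of 5 that fell in the first transition was 4 with processed signals under either scaling or with the brightest probe and 6 with medians aligned, that of 8 in the second was 7 with medians aligned or the brightest probe, and that of 3 that rose in the third was 2 with medians aligned. The median E in ES, 0.30, was 0.61 with medians aligned, 0.55 with quantile normalization within each RNA type and -0.25 with processed signals scaled to the 75th percentile. The number of genes with E over 1 in ES, 1, was 2, 2 and 0 under these. The cause was not tested. Median E of all bound genes in ES moved too, from 0.07 to 0.50, 0.28 and -0.18, and their ΔE from -0.02 to -0.35 with medians aligned, so the values of E are read against it. Of the 36 single values of E, 18, 24 and 13 moved by more than the spot SD under these, and 0 changed sign after passing 2-fold. The change in Ago–RNA of Tdgf1 from ES to ELA, -2.01, reversed to 0.054 with the brightest probe alone, which is the repeat-bearing one. Leaving out the repeat-bearing probes of Nanog and Tdgf1, chosen after seeing the data, gave total RNA changes of -2.40 and -4.41 between ES and ELA and -5.35 and -6.32 from ES to NPC/Neu. No paired analysis was possible because each condition has 1 array, and no array can be left out for the same reason. Signal over background limits Dppa4 and Tdgf1 in NPC and NPC/Neu.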

Other observations

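The gene whose centered values over the 8 arrays lay nearest to each core factor, among 16251 named genes well above background in ES total RNA, was found by Euclidean distance on the log2 scale. For Pou5f1 it was Gm5712 at 0.73, and the same gene was nearest to Utf1 at 1.13. Sall4 had Deptor, an inhibitor of mTOR, at 0.47, Dppa4 had Pramef12 at 0.63 and Fgf4 had Tex19.1, a germline and pluripotency gene, at 0.92. Sox2 lay nearest to Dpy19l4 at 0.34 and Nanog, by its mean of disagreeing probes, to Twf2 at 0.39. Tdgf1 lay nearest to S100a6 at 0.81 and Dppa5a, the most distant, to Zbtb32 at 1.59. Between core factors the closest patterns were those of Pou5f1 and Utf1, at 1.29.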
